A study of Mus musculus with 42 samples.

Results

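The comparison is of rapamycin with vehicle in mouse kidneys that had lost Tsc2 from the tubular epithelium. Its members were chosen by their labels, 3 libraries of rapamycin-treated and 3 of vehicle-treated Tsc2 KO kidneys, which are 6 of the 42 libraries of the series. The Tsc2 KO mice were KspCre+; Tsc2 fl/fl on a C57BL/6 background. KspCre is driven by the cadherin-16 promoter, which is active in tubular epithelium, so a whole kidney still holds glomerular, vascular, stromal and immune cells with intact Tsc2. Rapamycin was given by intraperitoneal injection at 1 mg/kg, 11 times from postnatal day 25, and kidneys were taken at day 50. Vehicle-treated mice are labelled DMSO. The same cohort held 3 vehicle and 3 rapamycin libraries each from Cre-negative control mice, labelled wild type, and from double knockout (DKO) mice that also carried Tfeb fl/fl, 18 libraries in all. These were used to estimate the spread between mice and to ask whether the response to rapamycin differed between genotypes. Xist was at 10.4 FPKM or more in all 18 libraries and the Y-linked genes Ddx3y, Uty, Kdm5d and Eif2s3y were at 0.0559 FPKM or less, as in female kidney.

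TSC2 is the catalytic part of the tuberous sclerosis complex, which switches off the small GTPase RHEB and thereby the growth kinase complex mTORC1. Rapamycin inhibits mTORC1. TFEB and TFE3 are transcription factors that bind the E-box CACGTG in promoters of lysosomal genes, and their own entry into the nucleus is controlled through RagC, RagD and folliculin. Loss of Tsc2 in kidney epithelium gives enlarged, cystic kidneys.

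Between 15104557 and 17920869 reads were counted on genes in the rapamycin libraries and between 17455925 and 19023720 in the vehicle libraries. Levels are the deposited FPKM, fragments corrected for the length of the gene and the size of the library. A gene was called when its Benjamini-Hochberg adjusted p from the quasi-likelihood test of edgeR did not exceed 0.05 and the mean FPKM reached 5 in 1 of the groups compared. Fold changes are log2 of rapamycin over vehicle, with the standard error (SE). Over all 6 groups of the cohort the variance between replicates was 16.4 to 87.5 times that of counting alone. In the Tsc2 KO groups it was 24.7 to 55.7 times.

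The vehicle group was not uniform. Steroidogenic genes of the adrenal cortex, a gland that lies on the kidney, were present in vehicle libraries 1 and 2. Cyp21a1, the steroid 21-hydroxylase, stood at 422, 13.9 and 0.0237 FPKM in vehicle libraries 1 to 3 and at 0 in all 3 rapamycin libraries. Star, the carrier of cholesterol into mitochondria, stood at 257, 10.6 and 0.679 FPKM in the vehicle and at 1.27, 1.46 and 1.02 FPKM in the rapamycin libraries. Hsd3b1, which makes progesterone, stood at 409, 19.9 and 0.602 FPKM against 0.0598, 0.0721 and 0.0338 FPKM. Only vehicle library 1, and to a lesser extent library 2, was therefore high for these genes, and library 3 was near the rapamycin libraries. The side-chain cleavage enzyme Cyp11a1 (56.5, 1.07 and 0 FPKM in the vehicle libraries) and the 11-beta-hydroxylase Cyp11b1 (179, 5.26 and 0 FPKM) were at or under 0.013 FPKM in every rapamycin library. Over the 15 genes of the adrenal cortex list the summed level was 2148, 79.5 and 33.3 FPKM in the vehicle and 35.6, 26.2 and 29.9 FPKM in the rapamycin libraries, and 0 to 5 genes of the list were at 0 in a vehicle library against 6 or 7 in a rapamycin library. Of the 12 that could be called, 9 were called decreased, and 0 were without vehicle libraries 1 and 2. Most counts of the rapamycin comparison are therefore given also without these libraries. There the vehicle group is 1 library that is assumed to vary like the other groups. Counts of interactions within a gene list are given with all libraries only. DKO vehicle libraries 1 and 2 also carried these transcripts, with list sums of 387 and 4851 FPKM against 43.4 FPKM in library 3.

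**Figure D1:**
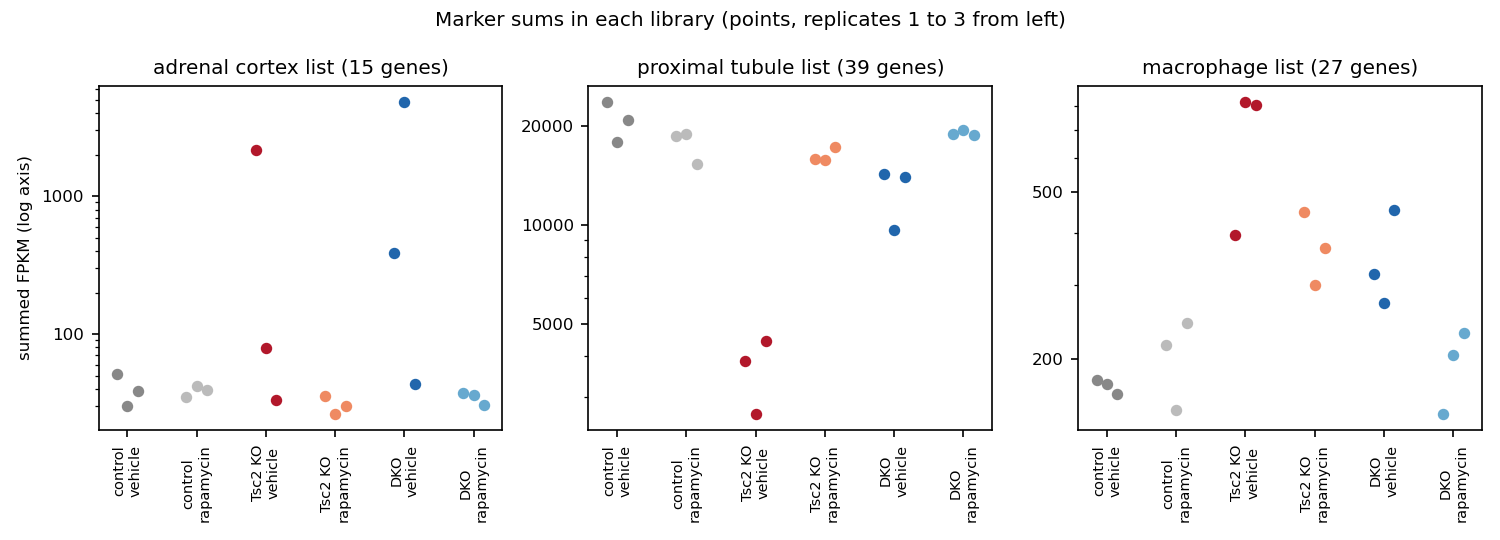
Summed FPKM (log axis) of the adrenal cortex, proximal tubule and macrophage lists in each of the 18 libraries, by group, with replicates 1 to 3 from left. Vehicle library 1 of the Tsc2 KO group (2148) and libraries 1 and 2 of the DKO group (387 and 4851) stand above the others for adrenal genes, and the 3 Tsc2 KO vehicle libraries lie lowest for proximal tubule genes (2654 to 4447).

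Rapamycin changed a large share of the transcriptome of Tsc2 KO kidney. Of 7997 genes that could be called, out of 17027 tested, 1694 rose (21.2%) and 1384 fell (17.3%), of which 603 rose and 444 fell by more than 1 on the log2 scale. All 3 rapamycin libraries lay above all 3 vehicle libraries in 24.6% of genes and below them in 23% of genes. The median log2 fold change was 0.01. These shares of the genes that could be called are the background for the gene lists below. Without vehicle libraries 1 and 2, 758 genes rose (9.48%) and 576 fell (7.2%), and 751 rising and 568 falling genes were called in both fits. A gene that is low in 1 group can reach the FPKM minimum only through the group where it is high, and with no such minimum 2622 of 17027 genes rose (15.4%) and 2378 fell (14%). With 3 mice in a group, and nothing in the labels on litters, p-values measure the spread between these mice.

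The same drug was then compared across genotypes. In control kidney 0 genes rose (0%) and 5 fell (0.0664%) by edgeR, with 1094 genes at an unadjusted p under 0.05, and DESeq2 called 17 higher and 33 lower. In DKO kidney 211 genes rose (2.73%) and 363 fell (4.7%), DESeq2 called 385 higher and 569 lower, and without DKO vehicle libraries 1 and 2 edgeR called 2 and 105. The interaction, that is the rapamycin effect in Tsc2 KO minus that in another genotype, was higher for 1421 genes (17.2%) and lower for 1035 genes (12.5%) against control, and higher for 669 (8.11%) and lower for 242 (2.93%) against DKO. Without vehicle libraries 1 and 2 of Tsc2 KO these were 694 and 426 against control, and 165 and 32 against DKO. Between vehicle-treated Tsc2 KO and control kidney, 1929 genes were higher (23.8%) and 1995 lower (24.6%) in Tsc2 KO. That last comparison shares its Tsc2 KO vehicle libraries with the rapamycin comparison, so its values are given only side by side.

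**Figure D2:**
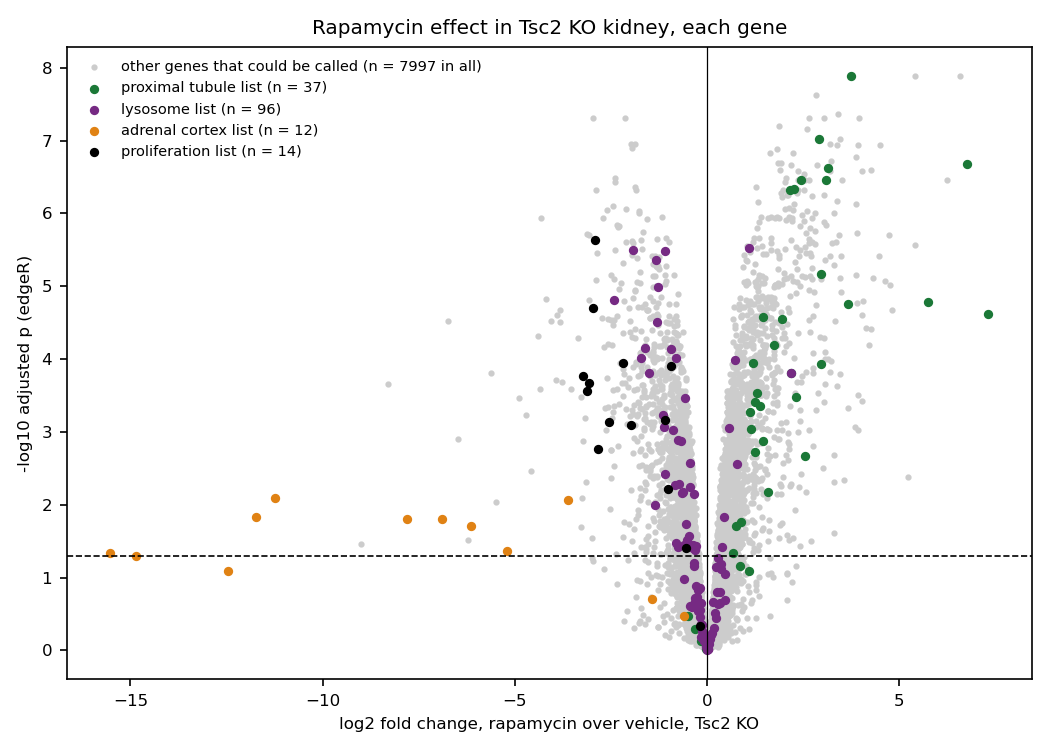
Log2 fold change of rapamycin over vehicle in Tsc2 KO kidney (x axis) against −log10 of edgeR's adjusted p (y axis), 1 point for each of 7997 genes, with 4 gene lists coloured and the threshold of 0.05 dashed. Proximal tubule genes lie to the right and proliferation and many lysosomal genes to the left.

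The targeted gene and the regulators were looked at first. Tsc2 mRNA was 4.47, 3.92 and 3.80 FPKM in the vehicle and 5.55, 6.5 and 5.06 FPKM in the rapamycin libraries, against 9.35 ± 0.66 FPKM (SD, n = 3) in control vehicle kidney. The rapamycin libraries were all above the vehicle libraries and below the control mean, with a log2 fold change of 0.49 (SE 0.10, adjusted p = 0.00199). A change in the number of cells of a type and a change in RNA per cell cannot be told apart in whole tissue, here and for every gene below. Tfeb itself was 6.09, 5.98 and 5.58 FPKM with vehicle and 6.5, 3.97 and 6.62 FPKM with rapamycin, where library 2 was low and the others high, and it was not called (log2 fold change −0.04, SE 0.18, adjusted p = 0.885). In DKO vehicle kidney, in which Tfeb was deleted, it was 2.80 ± 0.33 FPKM (SD, n = 3). Tfe3 was 4.18, 4.44 and 4.74 FPKM against 3.58, 2.56 and 3.57 FPKM, which lies under the FPKM minimum (log2 fold change −0.46, adjusted p = 0.0158).

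Genes used as readouts of TFEB were lower with rapamycin. Gpnmb, a membrane glycoprotein that marks TFEB and TFE3 activity, was 18.7, 17.0 and 18.4 FPKM in the vehicle libraries and 0.102, 0.164 and 0.241 FPKM in the rapamycin libraries. The groups were far apart, and it fell by 6.74 on the log2 scale (SE 0.86, adjusted p = 2.97e-05), to a level near the 0.0935 FPKM of control vehicle kidney. Flcn, which encodes folliculin, was 13.1, 15.1 and 17.4 FPKM with vehicle and 9.38, 8.58 and 8.51 FPKM with rapamycin (fell by 0.78, SE 0.13, adjusted p = 0.000227). Rragc was 56.9, 41.6 and 43.2 FPKM against 22.4, 33.1 and 30.6 FPKM (fell by 0.72, SE 0.14, adjusted p = 0.00111). Its paralog Rragd was 47.4, 59.0 and 45.3 FPKM against 23.7, 34.6 and 27.1 FPKM (fell by 0.82, SE 0.19, adjusted p = 0.00453). Without vehicle libraries 1 and 2 the call of Rragd was lost, at a log2 fold change of −0.65. Lamtor1, which anchors the Rag GTPases to the lysosome, was 28.1, 30.8 and 35.4 FPKM against 23.3, 14.5 and 21.9 FPKM (fell by 0.66, SE 0.16, adjusted p = 0.00593). In none of these did the groups overlap. Every rapamycin library lay below every vehicle library in 23% of all genes that could be called. Of 13 genes of the MiT/TFE, Rag and folliculin list that could be called, 5 fell and 1 rose (Lamtor5, log2 fold change 0.72), against a background of 17.3% and 21.2%, and the list median was −0.16. Without vehicle libraries 1 and 2, 4 fell and 1 rose, against 7.2% and 9.48%. In DKO kidney, in which Tfeb was deleted, Rragd and Flcn also fell with rapamycin (log2 fold changes −1.02 and −0.62). Rragc (−0.28) and Lamtor1 (−0.31) were not called there, and Gpnmb (−3.96) lay under the FPKM minimum. The interaction with DKO was not called for Gpnmb, Flcn, Rragc, Rragd or Lamtor1. That with control was not called for Rragc or Rragd. These DKO values include the vehicle libraries that carry adrenal transcripts.

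**Figure D3:**
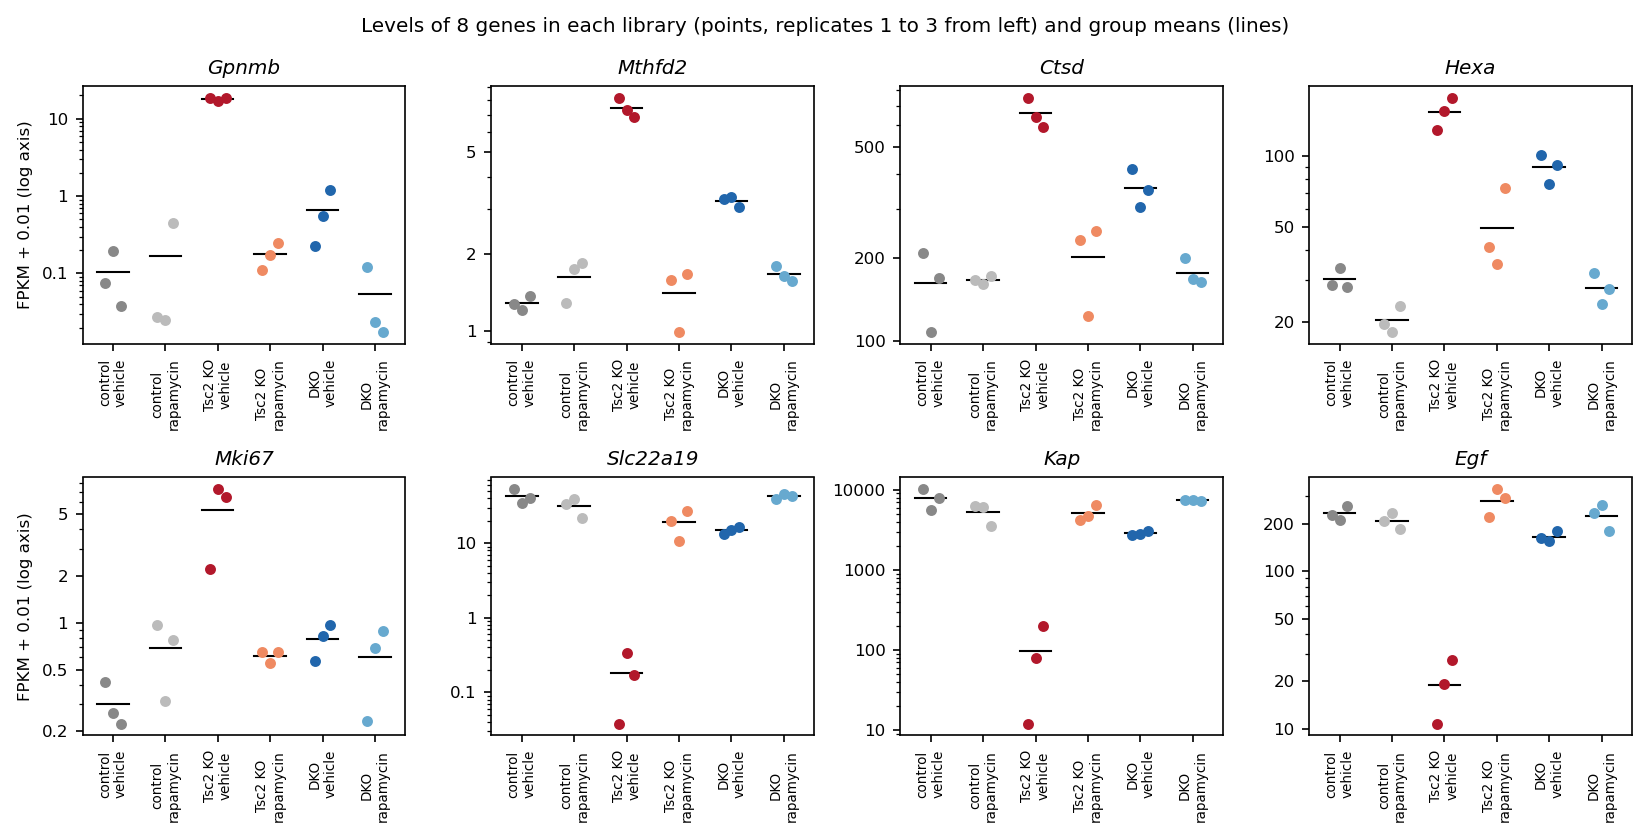
FPKM plus 0.01 (log axis) of 8 genes in each of 18 libraries, with replicates 1 to 3 from left and group means as lines. Gpnmb, Mthfd2, Ctsd, Hexa and Mki67 are lower, and Slc22a19, Kap and Egf higher, in all 3 rapamycin libraries of Tsc2 KO kidney than in all 3 vehicle libraries.

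Promoter windows show the E-box in some of the lysosomal and Rag genes that fell. Windows of 250 bases before to 50 after the start came from RefSeq (GRCm38.p6) and were searched for CACGTG, which is its own reverse complement, and for the longer forms TCACGTG and GTCACGTG on either strand, which contain it. CACGTG was found in 8.09% of 27025 genes and in 12.7% of 6026 protein-coding genes that could be called and had a window, in 14.6% of those called decreased and 9.88% of those called increased. Of the lysosome list it was in 21 of 75 genes with a window (28.0%), 10 of 29 that fell (34.5%) and 11 of 46 that did not (23.9%). GTCACGTG was in 24.0% of the lysosome list, 31.0% of its members that fell, 19.6% of those that did not and 5.33% of protein-coding genes that could be called. A match is a description of the sequence, not a binding site. The following stretches are shown because they carry the E-box in genes described here, 5′ to 3′ on the strand of the gene, with the longest form found in capitals.

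Ctsd, chr7:142388005-142388077, minus strand: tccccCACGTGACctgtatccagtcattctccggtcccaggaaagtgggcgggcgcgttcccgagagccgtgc
Gla, chrX:134601134-134601255, minus strand: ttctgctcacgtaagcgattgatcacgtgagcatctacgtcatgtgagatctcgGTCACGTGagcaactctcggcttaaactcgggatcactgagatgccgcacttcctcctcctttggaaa
Sumf1, chr6:108185584-108185656, minus strand: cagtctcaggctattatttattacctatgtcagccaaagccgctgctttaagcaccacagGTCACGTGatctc
Ctsl, chr13:64370691-64370770, minus strand: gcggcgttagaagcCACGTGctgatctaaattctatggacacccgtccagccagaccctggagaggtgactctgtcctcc
Rragc, chr4:123917261-123917387, plus strand: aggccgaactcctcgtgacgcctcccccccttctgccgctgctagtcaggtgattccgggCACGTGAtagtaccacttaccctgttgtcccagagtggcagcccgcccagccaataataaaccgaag
Lamtor1, chr7:101905708-101905834, plus strand: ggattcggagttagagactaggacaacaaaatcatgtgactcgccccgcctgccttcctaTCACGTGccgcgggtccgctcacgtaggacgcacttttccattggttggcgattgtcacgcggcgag

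The letters CACGTG were not in this window of Gpnmb, Rragd, Flcn, Sqstm1, Optn or Hexa, which also fell, and nothing follows from that about the factor.

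Lysosomal genes were mostly lower or not called, with a minority higher. Of the 96 genes of the KEGG lysosome list, which the study plotted for these samples and which is therefore not independent evidence of a direction, 37 fell and 7 rose (background 17.3% and 21.2% of all genes), and the list median was −0.23 against 0.01 for all genes. Without vehicle libraries 1 and 2, 18 fell and 4 rose. The background in that fit, with 1 vehicle library, was 7.2% falling and 9.48% rising. In vehicle-treated Tsc2 KO against control kidney 45 of the list were higher and 8 lower (background 23.8% and 24.6%). In DKO kidney 18 fell and 2 rose with rapamycin, against a background of 4.7% and 2.73%, and in control kidney 0 were called. The DKO count includes DKO vehicle libraries 1 and 2, which carry adrenal transcripts, and was not taken without them. The interaction was lower for 20 and higher for 9 of the 96 against control (background 12.5% and 17.2%). Against DKO it was lower for 5 and higher for 2 (background 2.93% and 8.11%).

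The soluble enzymes carried large differences. Ctsd, the aspartic protease cathepsin D, was 751, 642 and 591 FPKM with vehicle and 232, 123 and 250 FPKM with rapamycin (fell by 1.71, SE 0.25, adjusted p = 9.59e-05). Ctsl, a cysteine protease, was 347, 219 and 351 FPKM against 106, 97.8 and 120 FPKM (fell by 1.5, SE 0.23, adjusted p = 0.000155). In both genes every rapamycin library was under the lowest vehicle library. Of 15 lysosomal proteases 7 fell and 2 rose (background 17.3% and 21.2%), and 4 fell and 2 rose without vehicle libraries 1 and 2 (background 7.2% and 9.48%). Napsa, an aspartic protease of proximal tubule, went the other way, at 78.6, 118 and 183 FPKM with vehicle and 566, 423 and 742 FPKM with rapamycin (log2 fold change 2.19, SE 0.33, adjusted p = 0.000153).

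Of 31 hydrolases and cofactors that could be called 11 fell and 1 rose, and 8 fell and 1 rose without vehicle libraries 1 and 2. With all libraries the background was 17.3% falling and 21.2% rising, and without vehicle libraries 1 and 2 it was 7.2% and 9.48%. Hexa, which degrades gangliosides, was 128, 154 and 175 FPKM against 41.2, 35.0 and 73.5 FPKM (fell by 1.61, SE 0.23, adjusted p = 7.16e-05). Gla, the alpha-galactosidase deficient in Fabry disease, was 7.71, 6.65 and 7.30 FPKM against 3.31, 2.48 and 2.82 FPKM (fell by 1.33, SE 0.14, adjusted p = 4.43e-06). Gusb, the beta-glucuronidase, was 17.1, 17.8 and 16.8 FPKM against 7.45, 8.99 and 7.76 FPKM (fell by 1.09, SE 0.11, adjusted p = 3.29e-06). Vehicle libraries of Gla and Gusb lay close together, including libraries 1 and 2. Sumf1, which activates sulfatases, was 28.0, 27.1 and 30.4 FPKM against 22.4, 23 and 21.6 FPKM (fell by 0.35, SE 0.09, adjusted p = 0.00715).

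Membrane proteins and the proton pump followed. Their counts, and those of macrophage genes, stand against a background of 17.3% falling and 21.2% rising with all libraries. Without vehicle libraries 1 and 2 it was 7.2% and 9.48%. Of 19 lysosomal membrane genes 9 fell and 0 rose, and 5 fell without vehicle libraries 1 and 2. Among them was Cd68, a glycoprotein of macrophage lysosomes, at 18.1, 13.0 and 14.4 FPKM against 2.65, 3.14 and 2.74 FPKM (fell by 2.41). Of 22 V-ATPase genes, subunits of the pump that acidifies lysosomes, 10 fell and 2 rose (background 17.3% and 21.2%). Most of the decreased calls were lost without vehicle libraries 1 and 2, where the list median was −0.25 against −0.33 with all libraries. Tcirg1 was 18.5, 15.8 and 14.1 FPKM against 3.81, 3.87 and 4.99 FPKM (fell by 1.93, SE 0.19, adjusted p = 3.22e-06). Atp6v0a1, another a-subunit, was 33.0, 22.3 and 26.6 FPKM against 9.25, 10.6 and 13.9 FPKM (fell by 1.28). By contrast Atp6v0a4 and Atp6v1b1, subunits of acid-secreting intercalated cells, rose by log2 fold changes of 0.79 and 0.69, and the call of Atp6v0a4 was lost without those libraries. Pump subunits of the intercalated cell list went both ways. Atp6v1g3, also on that list, was 177, 197 and 154 FPKM against 82.2, 31.6 and 54.3 FPKM (fell by 1.65, SE 0.31, adjusted p = 0.000942). Atp6v0d2, on the intercalated cell list like Atp6v0a4, fell too. Macrophage genes moved with the lysosomal genes: 9 of 13 fell and 0 rose, but 4 fell without vehicle libraries 1 and 2. The median over all 27 macrophage genes tested was −1.07. The list sum was 394, 818 and 802 FPKM with vehicle against 449, 301 and 367 FPKM with rapamycin, where the groups overlap, and 166 to 179 FPKM in control vehicle kidney. No macrophage gene was at 0 in any of these 6 libraries. Of the 37 lysosomal genes that fell, 34 are not on the macrophage list, and the part of macrophages in their fall was not tested.

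**Figure D4:**
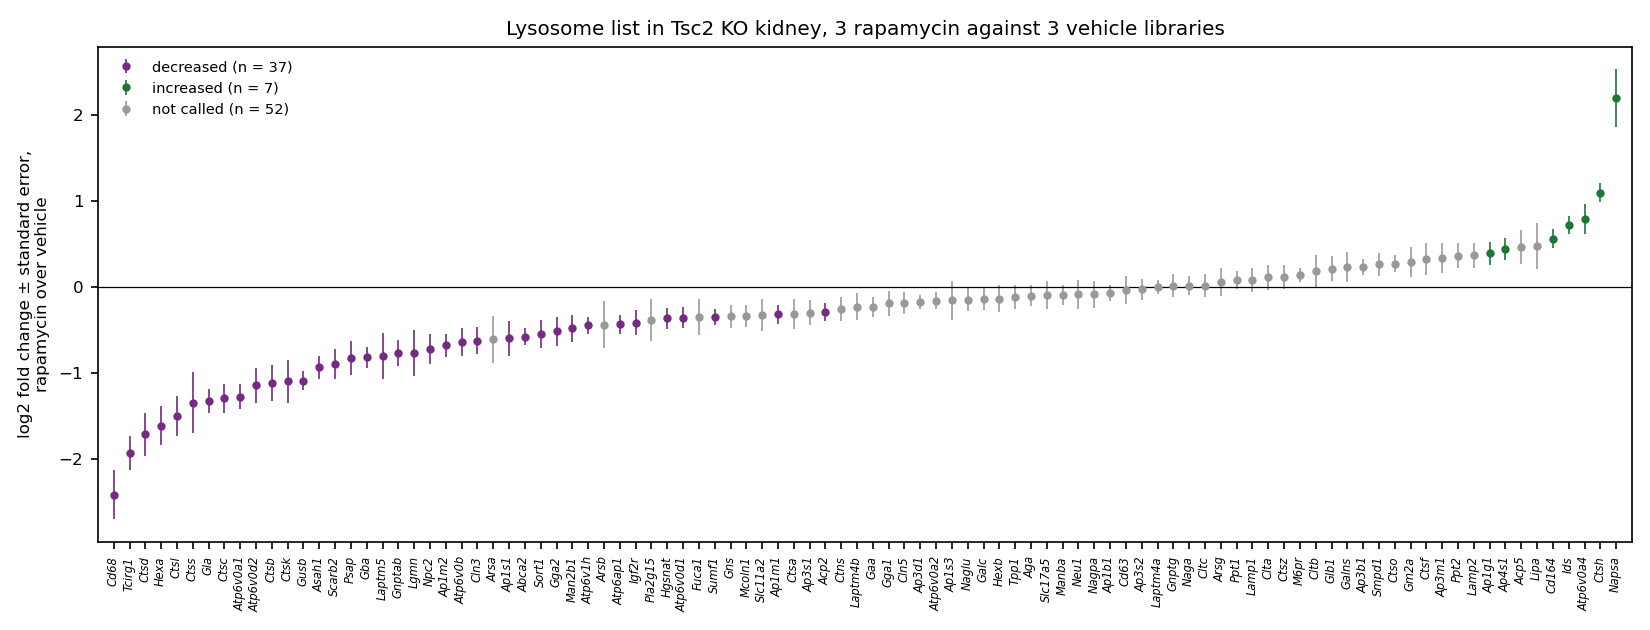
Log2 fold change ± SE of rapamycin over vehicle (y axis) for the 96 genes of the lysosome list, ordered by size, with called genes coloured. The 37 decreased genes run from Cd68 (−2.41) to Acp2 (−0.29), and the 7 increased genes end with Napsa (2.19).

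Of 30 autophagy genes 7 fell and 6 rose, close to the background of 17.3% and 21.2%, and 3 fell and 3 rose without vehicle libraries 1 and 2. The background without those libraries was 7.2% falling and 9.48% rising. The cargo receptors Sqstm1 (280, 273 and 289 FPKM against 165, 143 and 182 FPKM, fell by 0.78) and Optn (fell by 0.92) were lower, whereas the receptor Nbr1 was higher (log2 fold change 0.68, SE 0.10, adjusted p = 0.000118).

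Among genes of the mTORC1 pathway itself 4 of 19 fell and 6 rose, against a background of 17.3% and 21.2%, and 4 fell and 3 rose without vehicle libraries 1 and 2. The background without those libraries was 7.2% falling and 9.48% rising. Ddit4, an inhibitor of mTORC1 induced by stress, fell by 2.04 (SE 0.32, adjusted p = 0.000183) and Eif4ebp1, the translation repressor that mTORC1 phosphorylates, by 1.23 (SE 0.26, adjusted p = 0.00187). Mtor itself was higher, with a log2 fold change of 0.79, a call lost without those libraries.

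Amino acid and stress genes driven by ATF4 were mostly lower. Of 27 genes for ATF4 targets, serine synthesis and folate metabolism that could be called, 17 fell and 6 rose, with a median of −0.96, against a background of 17.3% and 21.2%, so that the share rising was near the background. Without vehicle libraries 1 and 2, 12 fell and 4 rose, against 7.2% and 9.48%. Mthfd2, the mitochondrial folate enzyme, was 8.18, 7.30 and 6.86 FPKM with vehicle and 1.58, 0.977 and 1.65 FPKM with rapamycin (fell by 2.40, SE 0.19, adjusted p = 3.76e-07), against 1.28 FPKM in control vehicle kidney. Trib3, an ATF4-induced pseudokinase, fell by 3.83, the stress protein Nupr1 by 3.22 and the transcription factor Atf5 by 2.51. The serine synthesis enzymes Phgdh (fell by 2.06) and Psat1 (fell by 1.78) and asparagine synthetase, Asns (fell by 2.29), were lower too. The 6 that rose include Cth and Cbs, enzymes of transsulfuration, with log2 fold changes of 2.19 and 1.51.

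Counts for lipid and sugar metabolism can be read against the background of 17.3% falling and 21.2% rising, or 7.2% and 9.48% without vehicle libraries 1 and 2. Of 22 sterol genes 8 fell and 3 rose, and 4 fell and 1 rose without vehicle libraries 1 and 2. Insig1, which holds back the processing of SREBP, fell by 1.38, whereas Cyp51, a sterol demethylase, had a log2 fold change of 1.83. Of 17 glycolytic genes 2 fell in both fits, a share below the background with all libraries and above it without vehicle libraries 1 and 2, Pfkp by 1.25 and Pkm by 1.04. Of 8 pentose phosphate genes 2 fell and 2 rose, shares near the background, G6pdx and Pgd by −0.98 and −0.89 and Prps1 and Rpe by 0.45 and 0.54 on the log2 scale. The calls of G6pdx and Rpe were lost without vehicle libraries 1 and 2. Of 19 fatty acid synthesis genes 3 fell and 2 rose, shares under the background, and 2 fell and 1 rose without those libraries. Scd2, a fatty acid desaturase, fell by 2.00, whereas Acss2, which makes acetyl-CoA from acetate, and the malic enzyme Me1 had log2 fold changes of 1.46 and 0.83. The call of Me1 was lost without those libraries, at a log2 fold change of 0.69.

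Genes of division and tubular injury were lower. With all libraries the background was 17.3% falling and 21.2% rising, or 14% and 15.4% with no FPKM minimum. Without vehicle libraries 1 and 2 it was 7.2% and 9.48%. All 44 proliferation genes were tested, and their median log2 fold change was −2.56. With no FPKM minimum 40 of the 44 fell and 0 rose. Only 14 reached the minimum, through the vehicle group where they were high, of which 13 fell, or 12 without vehicle libraries 1 and 2. Mki67, the antigen of cycling cells, was 2.21, 7.25 and 6.43 FPKM against 0.640, 0.538 and 0.642 FPKM (fell by 3.12, SE 0.51, adjusted p = 0.000271). Vehicle library 1 was lowest of its group yet above every rapamycin library. Of 35 injury genes tested, with a median of −1.29, 29 reached the minimum, of which 20 fell and 0 rose, and 11 fell without vehicle libraries 1 and 2. Lgals3, the galactose-binding lectin galectin-3, was 147, 134 and 138 FPKM against 21.7, 12.8 and 18.8 FPKM (fell by 2.97, SE 0.18, adjusted p = 4.97e-08). Lcn2, the injury marker lipocalin-2, fell by 2.42 (adjusted p = 0.000441), a call lost without vehicle libraries 1 and 2, at a log2 fold change of −1.49. The interaction was lower for 18 of 29 injury genes and 12 of 14 proliferation genes that could be called against control (background 12.5%), and for 10 of 30 and 7 of 14 against DKO (background 2.93%). Members low with rapamycin reached the minimum through the vehicle group, which by itself favours a lower interaction. These interaction counts are therefore descriptive, and a difference between genotypes was not tested on members free of that choice.

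Of 47 matrix genes tested, with a median of −0.95, 30 reached the minimum, of which 14 fell and 2 rose, and 8 fell and 1 rose without vehicle libraries 1 and 2. Lox, which crosslinks collagen, fell by 2.44 and the membrane metalloproteinase Mmp14 by 2.24. Timp1, a metalloproteinase inhibitor, fell by 2.20 (adjusted p = 0.0276), with the call lost in 7 of 16 alternative settings. Of 26 complement, chemokine and interferon genes that could be called 12 fell and 1 rose, and 7 fell and 0 rose without vehicle libraries 1 and 2. With no FPKM minimum 14 of the 42 complement, chemokine and interferon genes tested fell and 2 rose, with a median of −0.65. For the matrix and complement counts of genes that could be called, the background with all libraries was 17.3% falling and 21.2% rising. Without vehicle libraries 1 and 2 it was 7.2% and 9.48%. Fibroblast and mural genes (0 of 4) and endothelial genes (0 of 12) were not called in either direction.

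Tubular transport genes were among those with the largest increases. Of 37 proximal tubule genes that could be called 31 rose and 0 fell (median log2 fold change 1.58; background 21.2% and 17.3%), and 24 rose without vehicle libraries 1 and 2 (background 9.48%). The summed level of the 39 genes was 2654 to 4447 FPKM with vehicle, 15696 to 17158 FPKM with rapamycin and 17835 to 23643 FPKM in control vehicle kidney. In vehicle-treated Tsc2 KO against control kidney 30 were lower and 0 higher (background 24.6% and 23.8%), and the interaction was higher for 31 against control (background 17.2%) and 22 against DKO (background 8.11%).

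The organic anion transporter Slc22a7 was 0, 0.0839 and 0.0967 FPKM with vehicle and 9.22, 1.43 and 19.8 FPKM with rapamycin (log2 fold change 7.31, SE 0.91, adjusted p = 2.40e-05). Rapamycin library 2 was the lowest of its group, and the vehicle values rest on at most 4 counts, so that the size of the fitted fold depends on the prior count. Slc22a19, of the same family, was 0.0279, 0.324 and 0.159 FPKM against 19.5, 10.7 and 27.2 FPKM (log2 fold change 6.76, SE 0.50, adjusted p = 2.13e-07). Kap, the androgen-regulated kidney protein of proximal tubule, was 12, 80.1 and 197 FPKM against 4238, 4719 and 6431 FPKM (log2 fold change 5.73, SE 0.68, adjusted p = 1.62e-05). The vehicle libraries of Kap differed among themselves by more than 10 times and yet lay far under the rapamycin libraries. Cyp2d12, a cytochrome P450, was 0.182, 0.318 and 0.393 FPKM against 19.6, 35.8 and 30.6 FPKM (log2 fold change 6.58, SE 0.34, adjusted p = 1.29e-08). The group mean with rapamycin was under that of control vehicle kidney for Slc22a7 (10.2 against 52.3 FPKM) and Slc22a19 (19.1 against 42.2 FPKM) and above it for Cyp2d12 (28.7 against 16.0 FPKM), with no test of these differences.

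The later segments were mixed, and their counts stand against a background of 21.2% rising and 17.3% falling, or 9.48% and 7.2% without vehicle libraries 1 and 2. Of 27 thick limb and distal genes 16 rose and 3 fell, and 11 rose and 1 fell without vehicle libraries 1 and 2. Egf, the growth factor made by the thick limb and distal tubule, was 10.8, 19.3 and 27.2 FPKM against 222, 332 and 290 FPKM (log2 fold change 3.88, SE 0.28, adjusted p = 1.69e-07). Of 21 intercalated cell genes 9 rose, among them the chloride/bicarbonate exchanger gene Slc4a9 (3.73, 4.60 and 5.41 FPKM against 48.8, 45.6 and 34.2 FPKM, log2 fold change 3.23), and 4 fell, among them the transcription factor Foxi1 (fell by 1.06), with 6 and 3 without those libraries. Of 16 principal cell genes 6 rose and 1 fell, and 5 rose and 0 fell without them. The groups overlapped in the summed level of principal cell genes (1141 to 1190 FPKM with vehicle, 988 to 1606 FPKM with rapamycin) and of intercalated cell genes (1147 to 1406 FPKM and 1099 to 1438 FPKM). Of 19 genes of renin, klotho and mineral balance 13 rose and 1 fell, and 7 rose and 1 fell without them. Pth1r, the parathyroid hormone receptor, had a log2 fold change of 2.09.

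Genes of the fatty acid oxidation and PPAR-alpha list, of oxidative phosphorylation and of the mitochondrial genome were called in the upward direction or not at all. Of 28 genes of fatty acid oxidation 19 rose and 0 fell, with a median of 0.63 (background 21.2% and 17.3%), and 9 rose without vehicle libraries 1 and 2 (background 9.48%). Cyp4a14, a fatty acid hydroxylase, was 15.3, 8.48 and 19.2 FPKM against 115, 273 and 91.4 FPKM (log2 fold change 3.49, SE 0.36, adjusted p = 3.82e-06). Of 50 oxidative phosphorylation genes encoded in the nucleus 16 rose and 0 fell, but 3 without those libraries, against a background of 9.48%. Of 13 mitochondrial genome transcripts 11 rose, but 5 without those libraries. Mitochondrial transcripts took 5.03 to 7.30% of counts with vehicle and 8.36 to 10.2% with rapamycin. Of 80 ribosomal protein genes 6 were called higher and 0 lower, below the background of 21.2% and 17.3%. Without those libraries fewer were called, and the list median was 0.05 against 0.06 with all libraries.

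**Figure D5:**
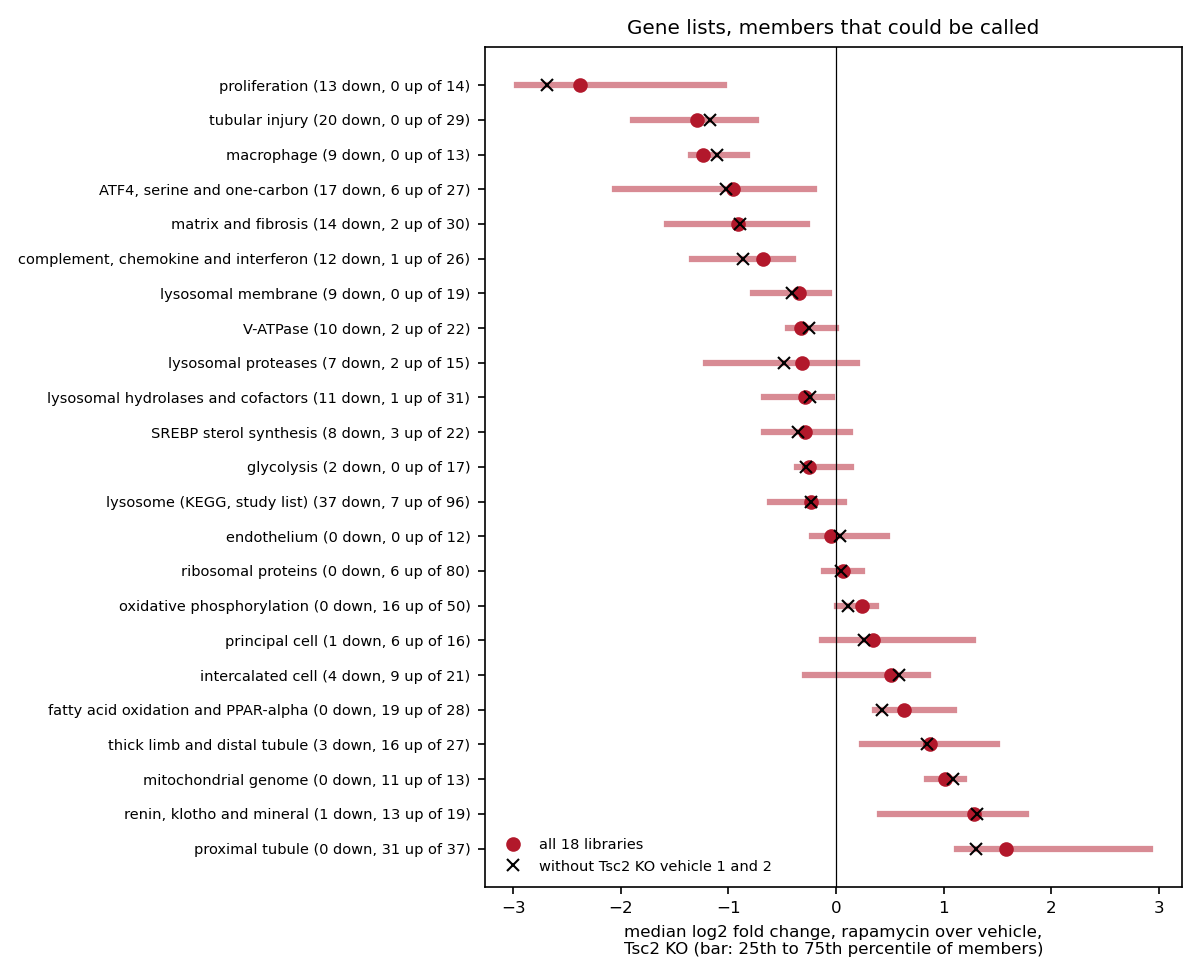
Median log2 fold change of rapamycin over vehicle for gene lists (x axis), with bars from the 25th to the 75th percentile of members, circles for all 18 libraries and crosses without Tsc2 KO vehicle libraries 1 and 2. Over members that reached the FPKM minimum, proliferation (−2.37) and tubular injury (−1.29) lie lowest and proximal tubule (1.58) highest among the lists plotted.

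Beyond the lists, the protein-coding genes with the largest decreases that held in both fits, with no overlap between groups, were Gpnmb, Nyx (fell by 5.63), Meltf (fell by 4.89), Diras2 (fell by 4.71), Tceal5 (fell by 4.41), S100a14, Gm9732 (fell by 4.2), Epop (fell by 4.07), Trnp1 (fell by 3.93) and Bex1 (fell by 3.91). S100a14, a calcium-binding protein of epithelia, was 45.9, 46.1 and 25.2 FPKM against 1.57, 2.05 and 2.21 FPKM (fell by 4.32, SE 0.39, adjusted p = 1.16e-06). The genes with the largest increases, after Slc22a7, Slc22a19, Cyp2d12 and Kap, were Akr1c14 (log2 fold change 5.40), Slc22a22 (5.39), Gm10681 (4.80), Cyp2a4 (4.75), Dnase1 (4.73) and Dpys (4.63). Akr1c14 and Cyp2a4 encode steroid-metabolising enzymes, and Dpys the dihydropyrimidinase of pyrimidine breakdown. Members of the Slc22, Cyp2 and Cyp4a families are near-identical in places, so counts may be split between paralogs. Egr1, an immediate early transcription factor, shows what a call can rest on: it was 5.94, 6.21 and 5.65 FPKM with vehicle and 45.8, 2.12 and 46.2 FPKM with rapamycin, where library 2 lay under all vehicle libraries, and its call (log2 fold change 2.40, adjusted p = 0.0365) was lost in 11 of 16 alternative settings.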

How the data were processed

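Poly-A RNA of whole kidney was sequenced from non-directional libraries, so reads of overlapping or antisense genes cannot be told apart. The authors deposited raw counts per gene and FPKM, in which the authors corrected for gene length and for a library size equal to a median-of-ratios size factor times the geometric mean of totals. The submitters' processing notes name STAR 2.6.1d, HISAT2 2.0.5, featureCounts 1.5.0-p3, DESeq2 1.20.0 and mm10, without roles. The paper's methods name the FPKM and adjusted p thresholds used here but no test. No value column was left unmapped (0).

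Counts of the 18 libraries were fitted in 1 model with edgeR 4.0.16 (R 4.3.3; filterByExpr, TMM, glmQLFit and glmQLFTest), 6 groups and no covariate, and p-values were adjusted over the 17027 genes tested. Interactions were contrasts of that fit. Named genes were the readouts the paper names, the 10 largest called changes in each direction that held without vehicle libraries 1 and 2 and whose groups did not overlap (adrenal and adipose genes left out), up to 3 called members of each of 41 lists, the 5 largest of each interaction and 5 adrenal genes. Mtor, Prps1, Sumf1, Phgdh, Psat1, Asns, Cth, Cbs, Foxi1, Lamtor5, Acp2 and the other list members outside this rule were added after their values were seen. Some genes that the rule names are not reported here. The members and lists were chosen with earlier results of these data known. Counts of 17027 genes were simulated for this comparison, with the changed genes drawn from those that reached the FPKM minimum. Of these, 79% of 100 changed 2-fold and 97% of 100 changed 4-fold were recovered. Among genes that reached the minimum, 2.22% of calls were false. The simulation held 200 changed genes and no library with added adrenal transcripts, so these shares need not hold for the data. Alternatives were DESeq2 1.42.0, other scalings and filters, a replicate block, an adrenal covariate and leaving out libraries.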

Additional observations from a re-analysis of the deposited data

Results flagged for a closer look

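The following genes were those with the largest tested difference in the rapamycin effect between genotypes among genes also called in Tsc2 KO kidney, and those readouts named by the study whose effects differed. Groups of 3 were too small to look for single outlying samples. Values are the log2 effect in Tsc2 KO minus the log2 effect in the other genotype, from edgeR's interaction contrast with Benjamini-Hochberg adjustment. Meltf, Nyx, Gpnmb and Mthfd2 reached the FPKM minimum only through the Tsc2 KO vehicle group, which by itself favours a lower interaction. Choosing genes called in Tsc2 KO kidney also uses libraries that the interaction shares. The differences below are therefore descriptive. These comparisons use the Tsc2 KO vehicle libraries that carry adrenal transcripts, and those against DKO also use DKO vehicle libraries 1 and 2, with adrenal sums of 387 and 4851 FPKM.

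Against control, the effect was lower in Tsc2 KO for Meltf (−10.34, adjusted p = 0.00289), Nyx (−9.30, adjusted p = 0.00056), Gpnmb (−7.50, adjusted p = 0.000966), Mthfd2 (−2.75, adjusted p = 9.18e-06), Lamtor1 (−0.82, adjusted p = 0.0186) and Flcn (−0.59, adjusted p = 0.0281). Meltf was listed at 0 FPKM in all control vehicle libraries, so its fitted difference is no bound. Nyx and Gpnmb were near 0 in control kidney too, where their highest values were 0.573 and 0.44 FPKM, both in rapamycin library 3, and without that library both calls were lost (Nyx −5.69, adjusted p = 0.0867; Gpnmb −4.30, adjusted p = 0.207). The call of Flcn was lost in 7 of 22 alternative settings. The effect was higher in Tsc2 KO for Slc22a7 (8.07, adjusted p = 0.000115), Slc22a19 (7.21, adjusted p = 2.66e-06) and Tsc2 (0.62, adjusted p = 0.00728).

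Against DKO, the effect was higher in Tsc2 KO for Slc22a7 (5.86, adjusted p = 0.00534), Cyp2d12 (5.59, adjusted p = 2.85e-06), Slc22a19 (5.24, adjusted p = 0.00018), Dpys (4.59, adjusted p = 0.000697), Kap (4.36, adjusted p = 0.00521) and Tsc2 (0.54, adjusted p = 0.0357), and lower for Mthfd2 (−1.45, adjusted p = 0.00388). Without Tsc2 KO vehicle libraries 1 and 2 the calls of Slc22a7 (5.24, adjusted p = 0.132), Mthfd2 (−1.31, adjusted p = 0.0727) and Tsc2 (0.65, adjusted p = 0.109) against DKO were lost, and that of Tsc2 was lost in 14 of 24 alternative settings.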

How the results depend on the processing

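Without Tsc2 KO vehicle libraries 1 and 2, the counts of increased and decreased genes were 758 and 576, interactions with control 694 higher and 426 lower, interactions with DKO 165 and 32, and lysosomal genes 4 increased and 18 decreased; the cause was not tested. Leaving out 1 library at a time gave 1324 to 1656 increased and 1090 to 1285 decreased genes, 1066 to 1546 higher and 778 to 1171 lower against control, 391 to 864 and 119 to 324 against DKO, and 5 to 10 increased and 29 to 35 decreased lysosomal genes. Interactions with DKO were 424 higher and 66 lower without DKO vehicle libraries 1 and 2, and 144 and 11 without all 4 libraries, both settings chosen after seeing the data. With no FPKM minimum 2622 genes were increased and 2378 decreased, and the lower interactions numbered 1597 against control and 383 against DKO. Asking for an FPKM of 5 in each library, which drops genes that fall under it by construction, left 842 decreased genes and 550 and 125 lower interactions. With edgeR on the compared groups only, 895 genes and 24 lysosomal genes were decreased, and 416 interactions with DKO were higher. DESeq2 gave 405 lower interactions with DKO on all groups and 372 on the compared groups. Tfeb changed sign to 0.045 without vehicle libraries 1 and 2 and ran from −0.16 to 0.16 as 1 library was left out (0.16 without rapamycin library 2), and Cyp11a1 (2.02) and Star (0.89) did so without vehicle libraries 1 and 2. Of 124 named genes 41 kept their call in all of up to 16 settings and 81 lost it in 1 or more. Many of these, among them Gpnmb, Mthfd2, Slc22a19 and Mki67, lost it only when an FPKM of 5 was asked of each library. That filter drops genes low in 1 group by construction. Replicate numbers did not pair the mice: same-numbered deviations correlated at −0.07 to 0.12, and the replicate block gave 1686 increased and 1395 decreased genes. A sex covariate was not run because all libraries had Xist. The median of all genes moved by under 0.1 under every scaling.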

Other observations

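Adipose genes were uneven in every group: their 14-gene sum ran from 131 to 345 FPKM in Tsc2 KO vehicle, 108 to 193 FPKM in Tsc2 KO rapamycin and 104 to 1307 FPKM in control vehicle kidney, and 0 of 10 that could be called passed the test. Of 8 podocyte genes in Tsc2 KO kidney 4 rose and 2 fell (background 21.2% and 17.3% of genes that could be called), but 1 rose and 0 fell without vehicle libraries 1 and 2 (background 9.48% and 7.2%). The 1 that kept its call was Podxl, the podocalyxin of podocytes and endothelium, which was 16.3, 19.2 and 16.5 FPKM with vehicle and 45.1, 58.0 and 23.1 FPKM with rapamycin. Rapamycin library 3 was the lowest of its group. Slc18a1 and Ddc, from the list of adrenal medulla genes, rose in Tsc2 KO kidney with rapamycin (log2 fold changes 1.58 and 1.23). The call of Ddc was lost without vehicle libraries 1 and 2 (0.83, adjusted p = 0.223), and Ddc is also made by proximal tubule.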
